A study of Homo sapiens with 4 samples.

Results

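The genes described are 44 regulators of cell death and survival, taken by symbol from 20323 gene rows measured by sequencing of enriched mRNA: the BCL2 family, caspases, death receptors with their adaptors, and the inhibitor of apoptosis proteins. Each symbol had a single gene row. The cells were HCT-8, a human colorectal cancer line, in a derivative resistant to 5-fluorouracil, an antimetabolite. They carried either a METTL14 overexpression plasmid (2 libraries, replicates 1 and 2) or a negative control plasmid (2 libraries, replicates 1 and 2), and METTL14 is the partner subunit of the methyltransferase that writes N6-methyladenosine (m6A) on mRNA. The cells of both groups were treated with cycloheximide at 100 ug/mL, which blocks protein synthesis, so no library comes from cells without it. How long the treatment lasted is not stated here. Clones and the promoter of the plasmid are not given in the sources used here.

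Apoptosis runs along connected routes. In the mitochondrial route, BH3-only proteins disarm the guard proteins of the BCL2 family or activate the pore formers BAX and BAK1, and the pores let cytochrome c out to assemble APAF1 and caspase-9 into the apoptosome. In the receptor route, ligands such as TRAIL and FAS ligand bring FADD and caspase-8 to their receptors, where CFLAR holds the caspase in check, and caspase-8 reaches the mitochondria by cutting BID. Colorectal cancer cells depend on guards such as BCL2L1 and MCL1, and the proteins of MCL1, CFLAR and PMAIP1 are known to turn over fast, so that their supply relies on the translation that cycloheximide stops.

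Total counts were 19206661 and 19829158 with METTL14, against 20161082 and 19247784 in controls. METTL14 itself had 7593 and 8516 counts in its overexpression libraries, against 472 and 598 in controls (log2 fold change 3.88, SE 0.141, edgeR adjusted p = 7.33e-05), in keeping with the labels. Of 12 intestinal epithelial markers, 12 were detected at 1 CPM or more (CPM, counts scaled to the TMM library size) with METTL14 and 11 in controls, and their summed level was 9642 and 9416 CPM with METTL14, against 18420 and 12090 CPM in controls. KRT8 and KRT18 carried that sum, and with KRT19 they were called lower (log2 fold changes -0.90, -0.92 and -0.39 for KRT8, KRT18 and KRT19). By contrast, CDH1, CDH17, CLDN7, LGALS4 and CDX2 were called higher and EPCAM had a log2 fold change of -0.01. The summed level of 9 fibroblast markers was 1322 and 1210 CPM against 554 and 492 CPM, nearly all of it COL6A1, and that of 10 leukocyte markers 72.7 and 72.9 CPM against 32.6 and 35.8 CPM. CD68 carried the leukocyte sum with METTL14 (67.5 and 66.3 CPM, against 18.8 and 17.4 CPM) and CORO1A fell (log2 fold change -2.50), with CD3E, MS4A1 and TYROBP at 0 counts in all libraries. Endothelial (7) and erythroid (6) markers summed to at most 1.90 CPM in any library. Mitochondrial transcripts took 9.85 and 10.2% of counts with METTL14, against 5.99 and 6.26% in controls. The part of these shifts in the results below was not tested. In such bulk RNA, fewer cells that express a gene and less of its RNA per cell cannot be told apart.

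Of the 44 genes, 43 had enough counts to be tested and 19 passed the test, 10 of them being higher and 9 lower in the METTL14 libraries. A gene passed when its adjusted p from the quasi-likelihood test of edgeR was below 0.05, with Benjamini-Hochberg adjustment over 12700 genes. The share that passed was 44.2%, where 55.1% of all tested genes passed (27.0% higher and 28.1% lower). For 33 of the 43 genes (76.7%) both METTL14 libraries lay on the same side of both controls, against 79.8% of all tested genes: 16 lay above (39.8% of all tested genes) and 17 below (40.0%). Changes were modest: the median size of the log2 fold change was 0.40, against 0.50 over all tested genes. A fitted change of at least 1 on the log2 scale in either direction was found for 3 of the 43 (6.98%, against 20.3% of all tested genes). These were BMF, BCL2L12 and CASP10, the last not called. The count of higher genes was 3 without METTL14 replicate 1, 6 without METTL14 replicate 2 and 16 without control replicate 2, and that of lower genes was 15 without control replicate 2. With a control left out the spread is judged from the METTL14 libraries alone, which differ little from each other, and the lone control is assumed to vary as they do.

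Pro-survival and pro-death genes were then counted apart. Of 10 pro-survival genes none was called higher and 2 were lower (20%), with a median log2 fold change of -0.06. Of 28 tested pro-death genes 7 were higher and 7 lower (25% each), with a median of 0.005 (all tested genes: -0.01). Of 5 genes with both or unclear roles (BCL2L13, RIPK1, TRADD, TNFRSF1A and DFFA) 3 were higher and none lower, with a median of 0.39. Of all tested genes 27.0% were higher and 28.1% lower, and the difference between roles was not tested. For the pro-survival genes 2 were called higher without control replicate 1 and 3 without control replicate 2, and 1 was lower without METTL14 replicate 2. For the pro-death genes 2 were higher without METTL14 replicate 1, 4 without METTL14 replicate 2, and 12 were lower without control replicate 2. At an unadjusted p under 0.05, XIAP was the only pro-survival gene on the higher side, and XIAP also passed with a filter of 5 CPM.

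**Figure D1:**
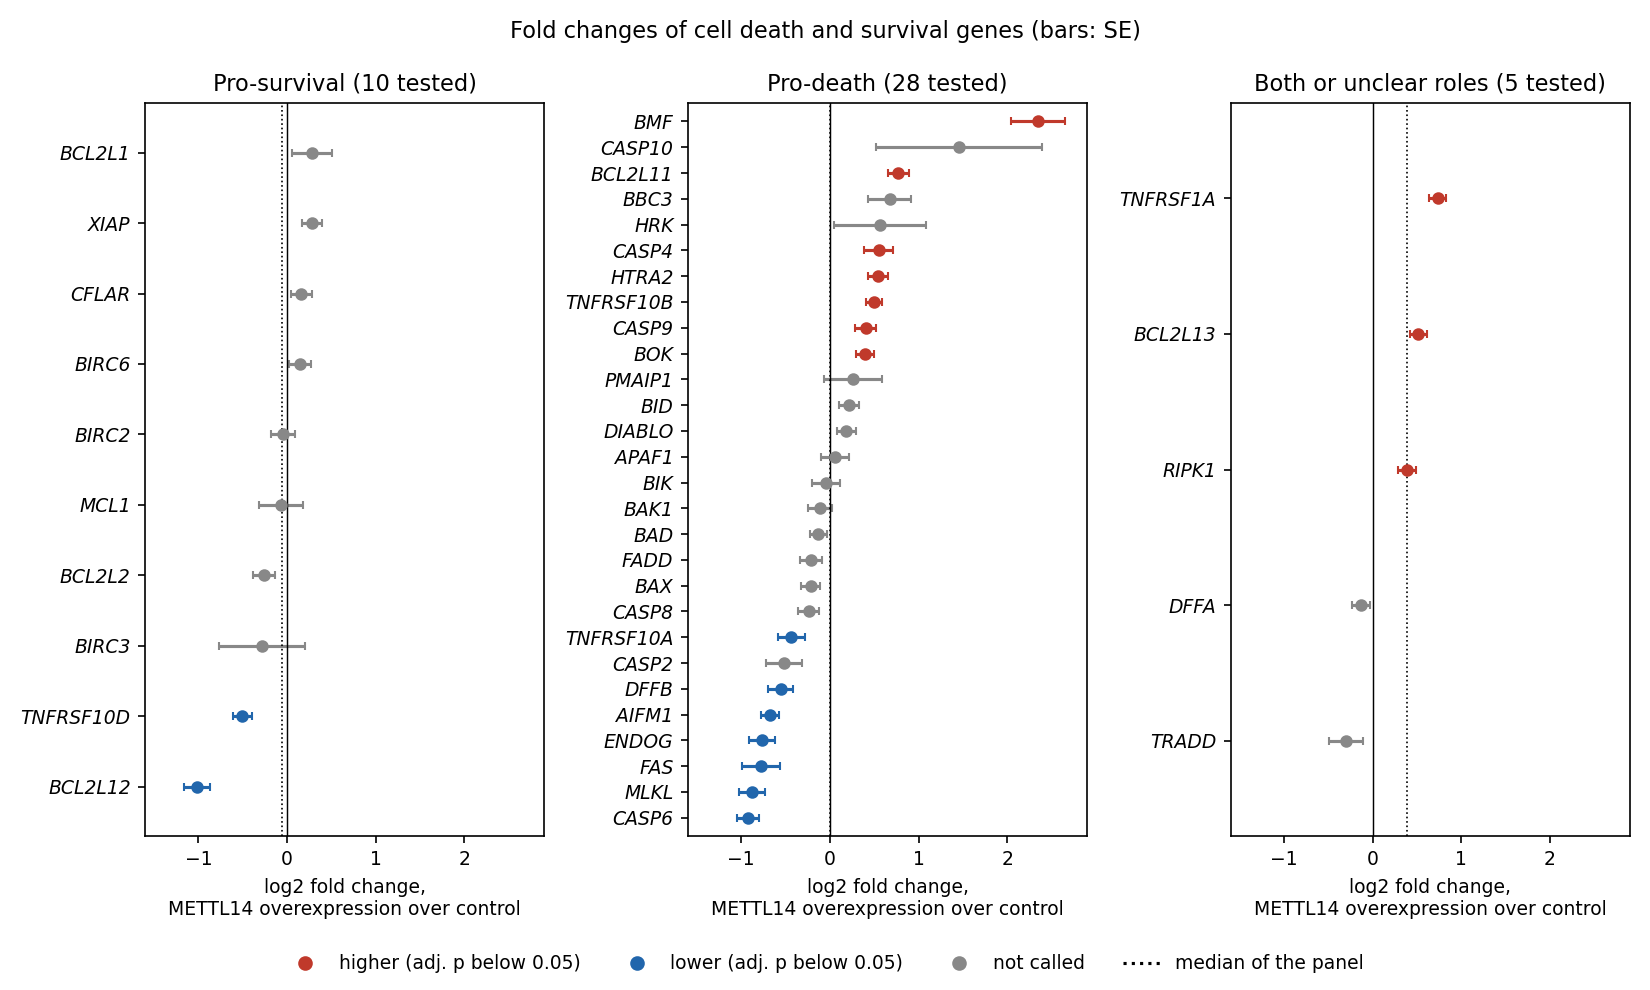
Log2 fold change (METTL14 overexpression over control, horizontal axis) of each tested gene with its SE as a bar, in panels by role, red for called higher, blue for called lower and grey for not called; the dotted line is the median of the panel. Pro-death genes spread to both sides, from CASP6 at -0.92 to BMF at 2.35, and the pro-survival panel holds no red point.

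The BH3-only genes BMF and BCL2L11 were the largest called rises, and the BCL2L12 and CASP6 genes the largest called falls. The promoter windows of these 4 genes are shown as those of the 2 largest called changes in each direction. Each window runs from 250 bases before to 50 after the RefSeq start (GRCh38.p14, 300 bases each, read 5′ to 3′ on the gene's strand). The first-listed start was taken where RefSeq has 2 (BMF and BCL2L12). The windows lie at chr15:40108830-40109129 (minus strand) for BMF, chr2:111120664-111120963 (plus) for BCL2L11, chr19:49664892-49665191 (plus) for BCL2L12 and chr4:109703396-109703695 (minus) for CASP6. Capitals mark matches, on either strand, to GTAAACA (a core bound by FOXO factors), CACGTG (an E-box), TTTNNCGC (an E2F-type site) or GGGCGG (a GC box).
BMF: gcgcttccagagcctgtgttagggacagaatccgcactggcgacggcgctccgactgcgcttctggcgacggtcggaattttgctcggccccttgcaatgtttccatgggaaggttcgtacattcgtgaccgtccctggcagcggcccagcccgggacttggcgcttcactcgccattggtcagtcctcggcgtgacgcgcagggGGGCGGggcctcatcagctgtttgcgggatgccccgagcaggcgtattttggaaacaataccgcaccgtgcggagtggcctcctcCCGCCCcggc
BCL2L11: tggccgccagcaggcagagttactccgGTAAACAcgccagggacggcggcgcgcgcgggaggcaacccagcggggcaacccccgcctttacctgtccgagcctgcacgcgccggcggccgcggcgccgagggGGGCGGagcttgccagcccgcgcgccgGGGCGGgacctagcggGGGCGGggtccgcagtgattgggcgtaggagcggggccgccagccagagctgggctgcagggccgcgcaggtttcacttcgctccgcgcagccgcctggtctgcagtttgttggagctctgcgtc
BCL2L12: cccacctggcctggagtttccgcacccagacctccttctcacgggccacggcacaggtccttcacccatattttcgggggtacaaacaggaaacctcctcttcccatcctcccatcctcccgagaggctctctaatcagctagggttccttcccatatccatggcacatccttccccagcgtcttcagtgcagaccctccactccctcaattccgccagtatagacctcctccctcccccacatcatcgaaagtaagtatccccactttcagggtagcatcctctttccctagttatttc
CASP6: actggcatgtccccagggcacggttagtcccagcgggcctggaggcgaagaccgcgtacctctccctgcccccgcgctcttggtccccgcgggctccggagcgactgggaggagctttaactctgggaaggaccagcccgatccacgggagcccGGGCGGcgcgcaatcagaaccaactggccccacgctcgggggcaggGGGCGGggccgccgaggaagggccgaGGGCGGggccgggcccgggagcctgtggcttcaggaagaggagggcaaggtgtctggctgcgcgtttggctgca
The window of BCL2L11 holds the only GTAAACA among the 35 of the 44 genes with a listed window, 3 GC boxes besides, and those of BMF and CASP6 hold 2 and 3 GC boxes. GTAAACA is in 3.41% of all 27305 windows and GGGCGG in 44.6%, so a GC box is common in such windows. Over the 35 windows CACGTG was in 4 (11.4%, against 7.43% of all windows), TTTNNCGC in 1 (2.86%, against 6.90%) and GGGCGG in 24. GGGCGG was in 7 of 9 windows of genes called higher, 2 of 6 of genes called lower and 15 of 19 of genes not called. A match is a string of letters and does not show that a factor binds.

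Among the genes grouped as guards, BCL2L12 fell. The classical members BCL2L1, MCL1 and BCL2L2, which hold pore formers inactive at the mitochondrial membrane, did not pass the test. BCL2L12 (ENSG00000126453), an atypical relative with reported anti-apoptotic activity, had 29.3 and 25.5 CPM with METTL14, against 61.6 and 49.3 CPM in controls (log2 fold change -1.02, SE 0.145, adjusted p = 0.0011), 2.02-fold lower. All 4 libraries separate by group, but the counts are not whole numbers (570.8 and 516.4 with METTL14), as when reads are divided between genes. BCL2L12 lies on chromosome 19 (GENCODE on GRCh38, 49665142 to 49673916, plus strand) and shares exon sequence with IRF3 on the other strand, which had a log2 fold change of -0.29 and did not pass the test (adjusted p = 0.101). BCL2L2 was slightly lower in both METTL14 libraries (17.4 and 17.6 CPM, against 20.8 and 21.1 CPM in controls), with an adjusted p of 0.114, and shares exons with the readthrough gene BCL2L2-PABPN1, which rose (log2 fold change 1.11).

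The 2 most abundant guards differed between the control libraries. BCL2L1, which encodes BCL-XL, had 358 and 338 CPM with METTL14, against 361 and 210 CPM in controls. MCL1 had 315 and 316 CPM with METTL14, against 233 and 428 CPM in controls. For each gene the METTL14 pair lay within the range of the control pair, and neither was called (log2 fold changes 0.29 and -0.07, adjusted p = 0.316 and 0.835). The direction turned with the control kept: MCL1 was at -0.44 without control replicate 1 and at 0.43 without control replicate 2, and BCL2L1 at 0.73 and -0.06. Per kilobase of transcript, BCL2L1 was the most abundant of the 44 genes in both groups (133 CPM per kilobase with METTL14, 109 in controls). MCL1 stood at rank 3 with METTL14 (80.2) and rank 2 in controls (84.1), and since control replicate 2 held more MCL1 than BCL2L1, their order is not fixed.

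The pore formers changed little. BOK, a BCL2 relative that can form pores without BAX and BAK1, was 1.32-fold higher at 62.6 and 61.4 CPM with METTL14, against 45.5 and 48.6 CPM in controls (log2 fold change 0.40, SE 0.102, adjusted p = 0.0136), and this call was lost without either METTL14 library (adjusted p = 0.157 and 0.124; at most 1 over all alternatives). BAX had 35.0 and 35.2 CPM against 41.7 and 39.9 CPM, a log2 fold change of -0.22 that did not pass (adjusted p = 0.121). BAK1 was at -0.11, and positive (0.07) without control replicate 1.

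The BH3-only genes, sensors that pass death signals to the BCL2 family, had 2 of 8 higher (25%, against 27.0% of all tested genes) and none lower (28.1% of all tested genes). Their median log2 fold change was 0.41. BMF (ENSG00000104081), whose protein is held at the cytoskeleton in healthy cells, had 5.24 and 5.34 CPM with METTL14 (102 and 108 counts), against 0.832 and 1.23 CPM in controls (16 and 24 counts). This is 5.10-fold higher (log2 fold change 2.35, SE 0.306, adjusted p = 0.0007), the largest change among the 44 genes. The gene (chromosome 15, 40087890 to 40108892, minus strand) stayed sparse even so: per kilobase it ranked 40 of 44 with METTL14 and 41 in controls. BCL2L11 (ENSG00000153094), which encodes BIM, a potent activator of BAX and BAK1, had 27.7 and 29.3 CPM with METTL14, against 16.8 and 16.6 CPM in controls (log2 fold change 0.77, SE 0.119, adjusted p = 0.0015), 1.71-fold higher. Its rank per kilobase was 17 with METTL14 and 27 in controls. The gene lies on chromosome 2 (111119378 to 111168447, plus strand).

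The other BH3-only genes did not pass. BBC3, which encodes the p53-induced PUMA, had 10.4 and 11.6 CPM with METTL14, against 5.20 and 8.57 CPM in controls (log2 fold change 0.67, SE 0.246, adjusted p = 0.0505); the METTL14 libraries were the higher pair. It passed in edgeR with size factors from DESeq2, with limma-voom, with other filters and without control replicate 2. It did not pass with DESeq2 (0.0576), with library totals (0.059) or without control replicate 1 (0.0646), METTL14 replicate 1 (0.0595) or METTL14 replicate 2 (0.143), and its log2 fold change was 0.36 without control replicate 1 and 1.08 without control replicate 2. PMAIP1, which encodes NOXA, the BH3-only partner of MCL1, had 27.7 and 28.8 CPM against 14.4 and 32.8 CPM, so the METTL14 pair lay inside the control range (log2 fold change 0.26, adjusted p = 0.532). Its value was -0.21 without control replicate 1 and 0.97 without control replicate 2. BID (0.21), BAD (-0.13) and BIK (-0.05) moved by less than the test could call, and the sign of BIK turned when counts were scaled to library totals alone. HRK, a BH3-only gene of the nervous system, was barely present, with 25 and 13 counts against 10 and 15.

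**Figure D2:**
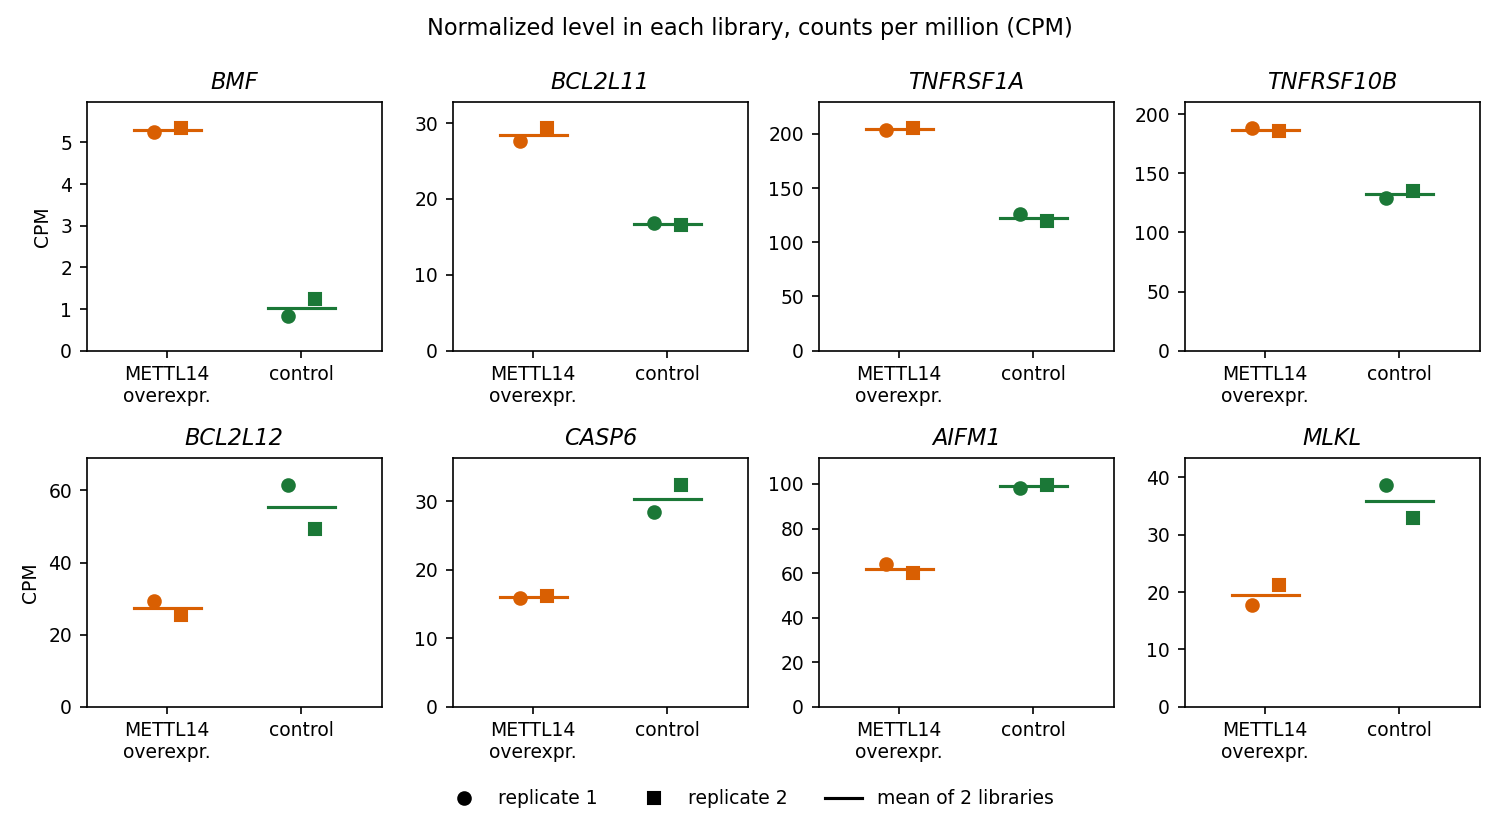
Normalized level in CPM (vertical axis, from 0) of 8 called genes in each library, METTL14 overexpression in orange left of control in green, with circles for replicate 1, squares for replicate 2 and a line at the mean of 2 libraries. The groups do not overlap for any of the 8, and BMF has the largest fold (5.10), at 5.24 and 5.34 CPM with METTL14 against 0.832 and 1.23 CPM in controls.

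Of 5 genes for proteins released from mitochondria or acting with them, AIFM1 and ENDOG fell and HTRA2 rose (60% called, against 55.1% of all tested genes). AIFM1, a flavoprotein that moves to the nucleus in caspase-independent death and serves respiratory chain assembly in healthy cells, had 63.9 and 60.0 CPM with METTL14, against 98.3 and 99.7 CPM in controls (log2 fold change -0.68, SE 0.0962, adjusted p = 0.0011). ENDOG, the mitochondrial endonuclease G, had 9.61 and 10.7 CPM against 18.1 and 16.3 CPM (-0.76, SE 0.149, adjusted p = 0.0041). For both genes the groups were well apart. ENDOG shares exons with SPOUT1 on the other strand, which was lower too (-0.85). HTRA2, a serine protease that binds inhibitor of apoptosis proteins once released, had 58.4 and 54.3 CPM against 40.3 and 37.1 CPM (0.54, SE 0.11, adjusted p = 0.0049), and was no longer called without METTL14 replicate 1 (adjusted p = 0.0673; at most 0.786 over all alternatives). Its antisense neighbours AUP1 (-0.41, adjusted p = 0.0617) and LOXL3 (-1.44) had negative values. DIABLO, which encodes SMAC, an antagonist of the same inhibitors, was at 0.19 and APAF1, the apoptosome scaffold, at 0.06, and neither passed (adjusted p = 0.168 and 0.783).

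The inhibitor of apoptosis family had no call among 4 genes, where 55.1% of all tested genes were called. XIAP, a direct inhibitor of caspase-9, had 36.1 and 38.0 CPM with METTL14, against 29.6 and 31.6 CPM in controls (log2 fold change 0.28, SE 0.111, adjusted p = 0.0689). Both METTL14 libraries were above both controls. BIRC6, a giant ubiquitin ligase of the family, was at 0.15, BIRC2 at -0.05 and BIRC3 at -0.29; BIRC2 and BIRC3 encode ubiquitin ligases of the TNF receptor complex and sit side by side on chromosome 11. BIRC3 was sparse, with 18 and 25 counts against 35 and 16, while BIRC2 had 699 and 765 counts against 650 and 824. With BIRC2 positive (0.12) without control replicate 2 and BIRC3 positive (0.40) without control replicate 1, neither has a settled direction.

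Of 6 caspases CASP9 and CASP4 rose, CASP6 fell and 3 did not pass (50% called, against 55.1% of all tested genes). CASP6 (ENSG00000138794), an executioner that cuts lamins, had 15.9 and 16.2 CPM with METTL14, against 28.3 and 32.4 CPM in controls (log2 fold change -0.92, SE 0.128, adjusted p = 0.0009), 1.90-fold lower. It lies on chromosome 4 (109688622 to 109703583, minus strand) and shares exons with MCUB on the other strand, which was lower too (-0.58). CASP9, the apoptosome caspase, had 31.6 and 34.5 CPM against 24.4 and 25.7 CPM (0.40, SE 0.116, adjusted p = 0.0218), a rise lost with DESeq2 and without either METTL14 library (adjusted p from 0.0002 to 1 over all alternatives). CASP4, which senses bacterial lipopolysaccharide and drives pyroptosis, had 31.5 and 28.4 CPM against 17.4 and 23.4 CPM (0.55, SE 0.163, adjusted p = 0.024), lost without METTL14 replicate 1 (adjusted p = 0.112; at most 0.71 over all alternatives). CASP9 and CASP4 had higher values in both METTL14 libraries than in either control.

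Among caspases that did not pass, CASP2, an initiator of the PIDD1 complex, had 55.9 and 54.3 CPM against 97.3 and 60.7 CPM, and its log2 fold change of -0.52 (adjusted p = 0.0631) was -0.14 without control replicate 1 and -0.82 without control replicate 2. It passed with DESeq2 (adjusted p = 0.0283; 5.4e-24 to 0.772 over its alternatives). CASP8, the initiator at death receptors, was at -0.24 (adjusted p = 0.127). CASP10, its paralog, had 14 and 23 counts against 0 and 13, too few for a size. CFLAR, CASP10 and CASP8 lie next to each other on chromosome 2, in this order between 201116104 and 201287711, and CFLAR, the catalytically dead inhibitor of caspase-8, was at 0.16 (31.7 and 34.2 CPM against 28.5 and 30.5 CPM, adjusted p = 0.276).

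Among the receptors TNFRSF1A and TNFRSF10B rose, and TNFRSF10A, FAS and the decoy TNFRSF10D fell. TNFRSF1A, the main TNF receptor, which can signal survival through NF-kB as well as death, had 203 and 205 CPM with METTL14, against 126 and 119 CPM in controls (log2 fold change 0.73, SE 0.0952, adjusted p = 0.0007). TNFRSF10B, the TRAIL receptor DR5, had 188 and 186 CPM against 129 and 135 CPM (0.50, SE 0.0945, adjusted p = 0.0037). Among the 44 genes these were the most abundant receptors per kilobase, at ranks 2 and 6 with METTL14, against 4 and 10 in controls. TNFRSF10A, the other TRAIL receptor with a death domain, was lower instead, at 35.8 and 35.0 CPM against 54.8 and 41.1 CPM (-0.44, SE 0.152, adjusted p = 0.0423). TNFRSF10D, a TRAIL decoy with a truncated death domain, had 51.7 and 48.4 CPM against 74.4 and 67.6 CPM (-0.50, SE 0.106, adjusted p = 0.0058). The 3 TRAIL receptors are paralogs between 23020133 and 23225126 on chromosome 8, all on the minus strand. Similar sequence can divide reads between paralogs, which was not tested, and the METTL14 counts of TNFRSF10A were whole numbers (697 and 709).

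FAS, the receptor of FAS ligand, had 5.81 and 4.25 CPM with METTL14, against 8.74 and 8.52 CPM in controls (log2 fold change -0.78, SE 0.214, adjusted p = 0.0174). FAS shares exons with ACTA2 on the other strand, which rose (2.48, with 253 and 275 counts against 41 and 51). The FAS counts of the METTL14 libraries are not whole numbers, as when reads are divided between genes. Such counts were also seen in some libraries for BCL2L12, ENDOG and HTRA2, other called genes that share exons on the other strand. TNFSF10, the TRAIL gene, had 2 and 3 counts with METTL14 and none in controls, and was not tested. Several receptor calls rested on all libraries being kept: TNFRSF10B lost its call without either METTL14 library (adjusted p = 0.0702 and 0.0578; at most 1 over all alternatives), FAS and TNFRSF10D without METTL14 replicate 2 (0.198 and 0.0853; at most 0.234 and 0.965), and TNFRSF10A without METTL14 replicate 1, METTL14 replicate 2 or control replicate 1 (0.118, 0.137 and 0.0563; at most 1), with a filter of 5 CPM and with library totals. The call of TNFRSF1A was lost only when a change beyond 1.5-fold was asked for (adjusted p = 0.0956).

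Downstream of the receptors, RIPK1, the kinase that can turn TNF signals to survival or necroptosis, had 58.9 and 60.3 CPM against 43.4 and 47.6 CPM (log2 fold change 0.39, SE 0.106, adjusted p = 0.0172), a call lost without either METTL14 library (adjusted p = 0.133 and 0.173; at most 1 over all alternatives). MLKL, the membrane-breaking executor of necroptosis, fell to 17.7 and 21.2 CPM with METTL14, against 38.7 and 32.9 CPM in controls (-0.88, SE 0.145, adjusted p = 0.002). RIPK3, the kinase that activates MLKL, was nearly absent, with 2 and 0 counts with METTL14 and 1 and 1 in controls. The adaptors FADD (-0.21) and TRADD (-0.30) did not pass. BCL2L13, a mitochondrial BCL2 relative known as a mitophagy receptor, had 161 and 158 CPM against 117 and 106 CPM (0.52, SE 0.1, adjusted p = 0.0041; lost without METTL14 replicate 1, adjusted p = 0.0615, at most 0.93 over all alternatives). Its neighbour on chromosome 22, BID, was at 0.21.

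Of the apoptotic DNase and its chaperone, DFFB, the nuclease that cuts chromatin, had 16.4 and 18.3 CPM with METTL14, against 27.7 and 23.3 CPM in controls (log2 fold change -0.55, SE 0.142, adjusted p = 0.0134; lost without METTL14 replicate 1, adjusted p = 0.128, at most 0.705 over all alternatives). DFFA, its inhibitor and folding partner, had 222 and 218 CPM against 253 and 227 CPM (-0.13, adjusted p = 0.318).

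Ratios within a library compare a pro-death gene with its inhibitor or partner and do not depend on scaling. In 11 pairs chosen for their known interaction, the log2 ratio of counts did not overlap between groups in 8; no share over other pairs was computed, and for single genes 79.8% did not overlap. Higher with METTL14 were TNFRSF10B to TNFRSF10D (1.86 and 1.94, against 0.80 and 1.00 in controls, a difference of 1.00), BCL2L11 to MCL1 (difference 0.77), PMAIP1 to MCL1 (0.38) and CASP9 to XIAP (0.12). Lower with METTL14 were BAX to BCL2L1 (-0.55), BAD to BCL2L1 (-0.47), DFFB to DFFA (-0.43) and CASP8 to CFLAR (0.13 and -0.02, against 0.59 and 0.30, a difference of -0.39). The pairs BAK1 to MCL1, BBC3 to BCL2L1 and DIABLO to XIAP overlapped. TNFRSF10A, the other TRAIL receptor with a death domain, was not paired. It fell (log2 fold change -0.44) as TNFRSF10D did (-0.50), so the ratio to the decoy speaks for TNFRSF10B only. The smallest p of an exact permutation test is 0.333 with so few libraries, and these ratios carry no test. Of the 6 ratios to MCL1 or BCL2L1, all but PMAIP1 to MCL1 (-3.50 and -3.45, against -4.01 and -3.70) were wide in the controls: that of BCL2L11 to MCL1 was -3.51 and -3.43 with METTL14, against -3.79 and -4.69 in controls. Without control replicate 1 and without control replicate 2 the difference was 1.22 and 0.33 for BCL2L11 to MCL1, -0.92 and -0.19 for BAX to BCL2L1, and -0.87 and -0.06 for BAD to BCL2L1. It was 0.23 and 0.54 for PMAIP1 to MCL1 and -0.24 and -0.54 for CASP8 to CFLAR. It changed sign for BAK1 to MCL1 (0.50 and -0.71) and BBC3 to BCL2L1 (-0.37 and 1.13), while TNFRSF10B to TNFRSF10D stayed at 0.90 and 1.10.

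**Figure D3:**
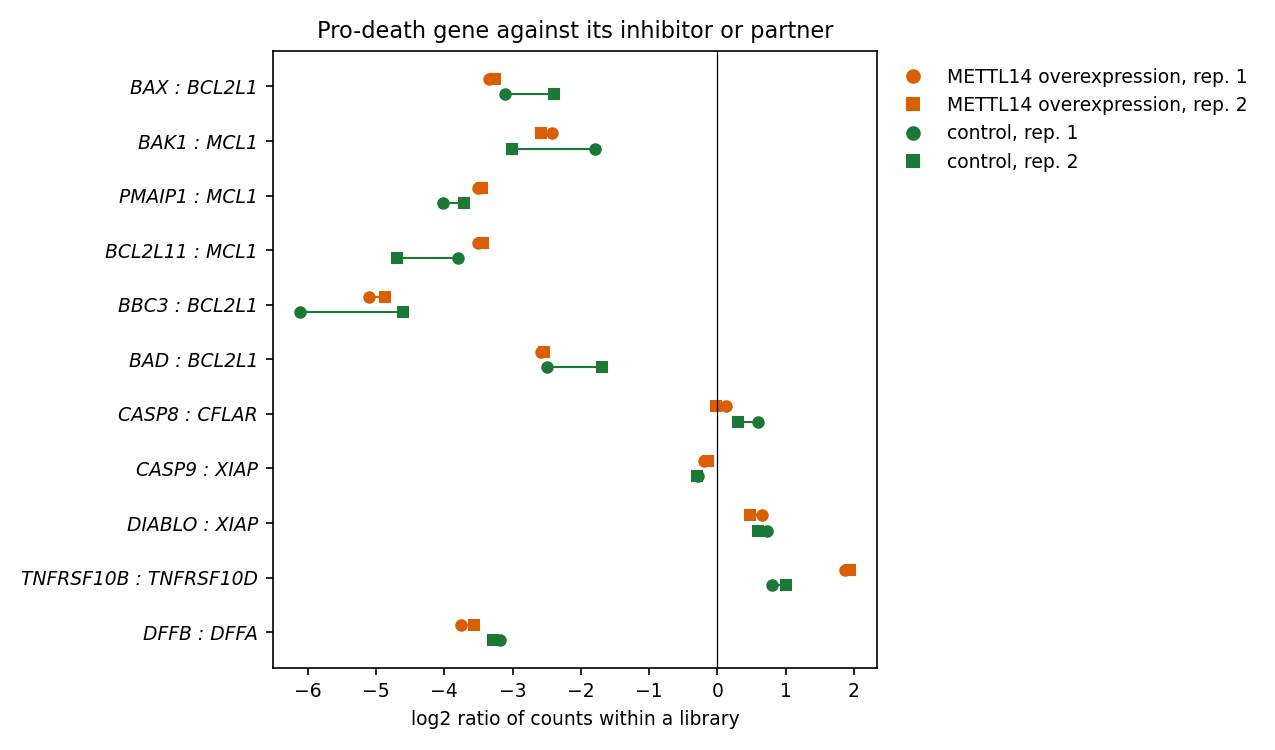
Log2 ratio of counts (horizontal axis, 0.5 added to each count) for 11 pairs of a pro-death gene and its inhibitor or partner, METTL14 overexpression in orange above control in green, circles for replicate 1 and squares for replicate 2, joined by a line. TNFRSF10B to TNFRSF10D shows the clearest gap (1.86 and 1.94 against 0.80 and 1.00), and the green lines are long for ratios with MCL1 or BCL2L1 other than PMAIP1 to MCL1.

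Summed over roles, the ratio of pro-death to pro-survival transcripts with METTL14 lay within the range of the controls. Pro-death transcripts summed to 1038 and 1030 CPM with METTL14, against 1065 and 1015 CPM in controls, and pro-survival transcripts to 945 and 932 CPM against 905 and 952 CPM. Their ratio was 1.10 and 1.10 with METTL14, against 1.18 and 1.07 in controls. Other measures gave other readings, and none was tested. The mean log2 CPM of tested pro-death genes minus that of pro-survival genes was -0.77 and -0.82, against -1.11 and -0.90 in controls. There both METTL14 libraries lay above both controls, but replicate 2 of each group was close, and this mean weighs sparse genes like abundant ones. It includes BMF (5.24 and 5.34 CPM against 0.832 and 1.23 CPM) and CASP10 (14 and 23 counts against 0 and 13). The mean was not computed without them. Per kilobase of transcript the pro-death sum lay below both controls (497 and 490, against 520 and 503). BCL2L1 and MCL1 made up 71.2 and 70.2% of the pro-survival sum with METTL14, against 65.7 and 67.0% in controls. The 5 genes with both or unclear roles summed to 651 and 647 CPM with METTL14, against 547 and 507 CPM in controls.

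The controls differed from each other by more than 1.5-fold for 7 of the 43 genes (16.3%, against 10.8% of all tested genes): BCL2L1, MCL1, BIRC3, BBC3, PMAIP1, CASP2 and CASP10. Control replicate 2 had 1.83-fold more MCL1, 2.27-fold more PMAIP1 and 1.64-fold more BBC3 than control replicate 1, and control replicate 1 had 1.72-fold more BCL2L1. For PMAIP1 the gap was wider than in 97.7% of all tested genes, for MCL1 than in 95.3% and for BCL2L1 than in 94.3%. The METTL14 libraries differed by at most 0.15 on the log2 scale for BCL2L1, MCL1, BBC3, PMAIP1 and CASP2, and by 0.38 and 0.59 for the sparse BIRC3 and CASP10. The median difference between controls was 0.19 over the 43 genes (0.21 over all tested genes), and that between METTL14 libraries 0.09 (0.09 over all).

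**Figure D4:**
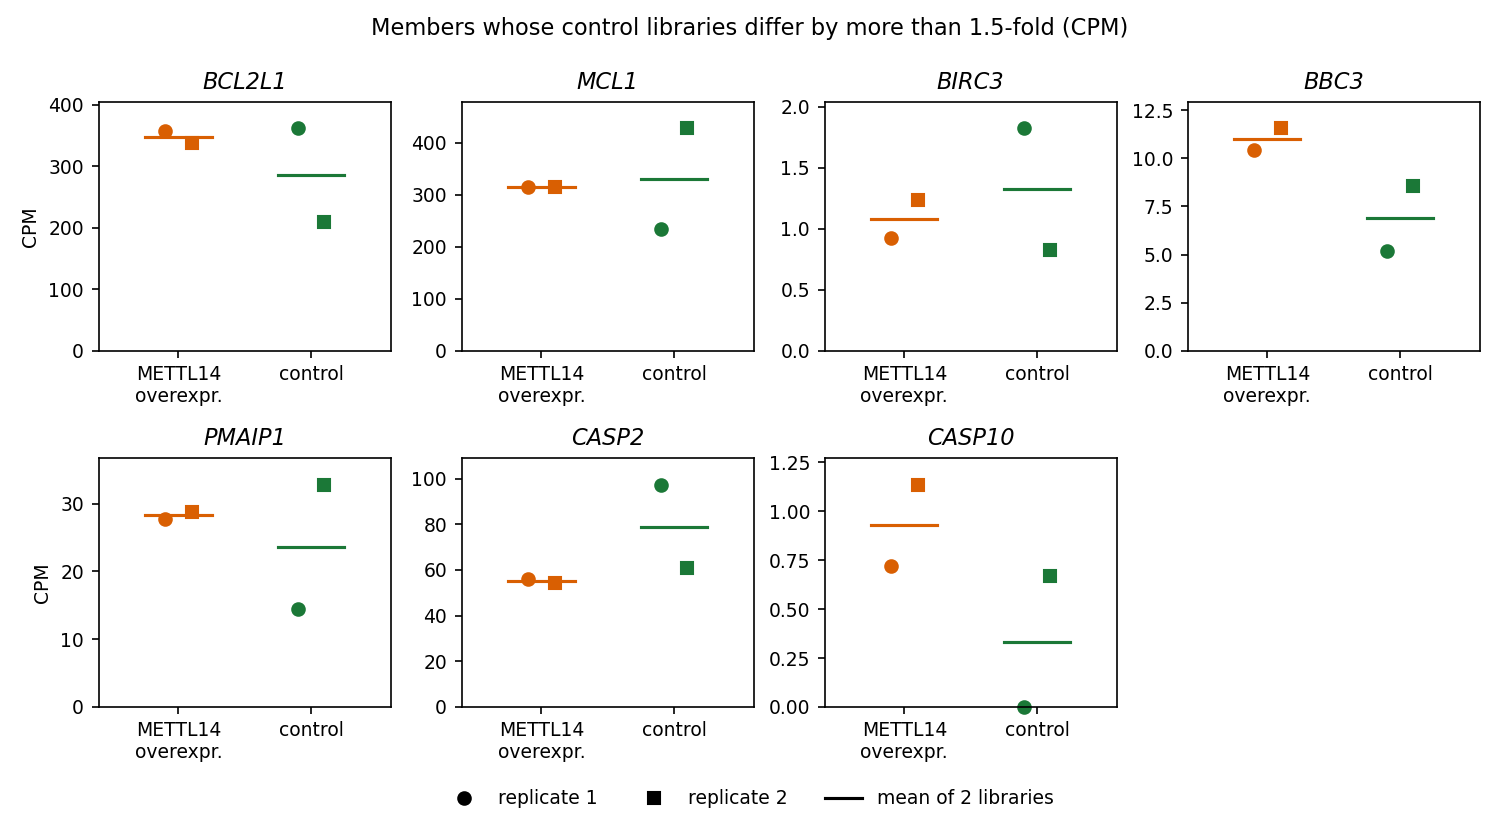
Level in CPM (vertical axis, from 0) of the 7 genes whose control libraries differ by more than 1.5-fold, METTL14 overexpression in orange left of control in green, circles for replicate 1, squares for replicate 2 and a line at the mean. For BCL2L1, MCL1 and PMAIP1 the orange points lie close together and at or within the range of the green points (MCL1 315 and 316 CPM, against 233 and 428 CPM).

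Because METTL14 serves the enzyme that methylates adenosine in GGAC contexts, the letters GGACT were counted in a principal GENCODE transcript of each gene. The genes called higher held a median of 1.87 GGACT per kilobase (10 genes, 0.844 to 2.97) and those called lower 0.646 (9 genes, 0 to 1.62), at median lengths of 2514 and 2523 bases. Genes not called lay between, at 1.32, with a range wider at the top (24 genes, 0.385 to 3.81). CASP9 had the densest transcript among the risers (6 matches in 2019 bases, 2.97), and MLKL, which fell, had none in 2523 bases. Over all tested genes the medians were 1.03 for those called higher and 0.864 for those called lower, with GC content differing too (53.3 and 46.6%). The median of all tested genes not called was 0.953. In the other apoptosis genes described next the medians were 0.834 for 18 higher and 0.864 for 26 lower genes, so the higher density of the risers among the 44 was not seen there. The 23 genes not called there had a higher median (1.29) than either. No methylation was measured in these files.

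Of 77 other listed genes of the pathway 67 were tested, 18 were higher (26.9%, against 27.0% of all tested genes) and 26 lower (38.8%, against 28.1%), with a median log2 fold change of -0.15 against -0.01 over all tested genes; without METTL14 replicate 1 or 2 the number higher was 9 or 7. The balance was 22 higher and 25 lower with library totals, and 24 higher and 27 lower without control replicate 1, and the difference from other genes was not tested. At a mean of at least 1 CPM in the libraries, the largest called falls were in BCLAF1, an RNA-processing factor first found as a BCL2 partner (35.8 and 37.7 CPM, against 188 and 187 CPM in controls, log2 fold change -2.35, SE 0.0999), FAIM, an inhibitor of FAS killing (-1.89, SE 0.144), SIVA1, a pro-apoptotic protein (-1.49, SE 0.135), PDCD5 (-1.48, SE 0.132) and NOL3, which blocks death receptor and mitochondrial signals in muscle (-1.32, SE 0.159). The largest called rises at that level were in BCL2L14 (5.65 and 5.63 CPM, against 1.72 and 1.39 CPM, 1.86, SE 0.262), SEPTIN4, whose ARTS isoform antagonizes XIAP (1.59, SE 0.203), PDCD4, an inhibitor of translation initiation (1.11, SE 0.191), the death receptor TNFRSF21 (0.83, SE 0.115) and PPP1R13L, an inhibitor of p53 (0.78, SE 0.134).

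Named after their values were seen, CYCS, cytochrome c, the trigger of the apoptosome, was at -1.19 (adjusted p = 0.0002), and BIRC5, survivin, an inhibitor of apoptosis family member of dividing cells, at -1.23 (adjusted p = 0.0005). BCL2 itself was sparse (95 and 128 counts, against 125 and 131) and did not pass (-0.24, adjusted p = 0.371). TNFRSF10C, another TRAIL decoy, had 10 and 14 counts with METTL14, against 1 and 0 in controls, so few that no fold is given.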

How the data were processed

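The authors deposited expected counts, an estimate for every gene with no scaling applied. The submitters' processing notes list fastp, HISAT2, Bowtie2, RSEM and StringTie without versions, and name hg18 as the build. Of the gene identifiers 20171 of 20323 are in GENCODE release 29 (GRCh38), from which positions, transcript length, shared exons and GGACT counts (transcript of best APPRIS rank, then longest) were taken, and the build behind the counts is unclear. Rows without a symbol (102) took at most 0.0366% of counts. Strandedness of the counting is not stated in the sources read, so sense and antisense reads cannot be told apart, and 13 of the 44 genes share exon sequence with another gene.

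Counts were rounded and analysed in edgeR 4.0.16 (R 4.3.3): filterByExpr with a minimum count of 10, TMM normalization, robust quasi-likelihood test with no covariate, Benjamini-Hochberg adjustment over 12700 genes at 0.05. SE is the size of the log2 fold change over the square root of F. CPM are scaled to TMM library sizes. Differences between 2 libraries are of log2(CPM + 0.1). As alternatives, the test was replaced by DESeq2 1.42.0, limma-voom (limma 3.58.1) or glmTreat against a 1.5-fold change. The scaling was replaced by library totals or DESeq2 size factors, and the filter by none or by 5 CPM in 2 libraries. The replicate number was added as a block, and each library was left out in turn. All 44 genes were reported, and of the wider list the 5 largest called rises and falls at a mean of at least 1 CPM. Genes, roles, pairs and lists were chosen with earlier results of these data known. Replicates differed by more than sampling noise (chi-square per degree of freedom 3.29 between METTL14 libraries and 28.8 between controls); the series describes independent experiments, and p-values measure the spread between these samples only. On simulated counts for this comparison (12573 genes tested, 50 genes changed at each size) the test recovered 50% at 1.5-fold, 78% at 2-fold and 98% at 4-fold, with 6 false among 168 calls. Far fewer genes were changed there than the 55.1% called here. The simulated spread was the same for all libraries, while the controls here varied more than the METTL14 libraries. These rates may therefore not carry over. Some results of the wider list are not reported here. Windows and motifs are from RefSeq (GRCh38.p14). Python 3.11.15, numpy 2.4.6, pandas 2.3.3 and matplotlib 3.10.9 were used.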

Additional observations from a re-analysis of the deposited data

How the results depend on the processing

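Of 513 log2 fold changes of single genes under 12 alternatives 441 kept direction and side of the threshold. Part of this was fixed in advance: the test for a change beyond 1.5-fold reuses the same fold changes with a stricter demand. It could turn no direction and add no call. Of the 19 called genes 3 kept their call under every alternative, and 8 did so with that test set aside. BMF, BCL2L12 and CASP6 kept their calls under every one of the 12, and BCL2L11, TNFRSF1A, AIFM1, ENDOG and MLKL under all but the test for a change beyond 1.5-fold. That test, which asks for more, called 1 gene higher and 2 lower among the 44 (pro-survival 1 lower, pro-death 1 higher and 1 lower), 5 higher and 10 lower in the wider list, and 1416 and 1357 over all genes. With a filter of 5 CPM 1 pro-survival gene was higher. Leaving out each library gave 2307 to 4452 higher and 2307 to 4575 lower among all genes, 3 to 16 higher and 6 to 15 lower among the 44, 0 to 3 higher and 1 to 3 lower among pro-survival genes, 2 to 10 higher and 5 to 12 lower among pro-death genes, and 7 to 24 higher in the wider list. The sign turned for genes that were not called: leaving out libraries gave -0.0577 to 0.73 for BCL2L1, -0.44 to 0.43 for MCL1, -0.20 to 0.12 for BIRC2, -0.75 to 0.40 for BIRC3, -0.27 to 0.0685 for BAK1, -0.18 to 0.0783 for BIK, -0.21 to 0.97 for PMAIP1, -0.00337 to 0.99 for HRK and -0.10 to 0.20 for APAF1, and library totals gave 0.00281 for BIK. Same-numbered libraries did not deviate together (correlation 0.0443). With the replicate number as a block 12 of the 44 were higher and 10 lower (3797 and 3903 over all genes), which added BBC3 (adjusted p = 0.0026; 1.06e-07 to 0.443 over its alternatives), CASP2 (0.0034; 5.4e-24 to 0.772) and CASP10 (0.0499; 0.0001 to 0.516). Counting DFFA as pro-survival left that role at 0 higher and 2 lower, and counting the other genes of both or unclear roles as pro-death gave 10 higher and 7 lower. Another scaling moved the median of all genes by at most 0.0489 (log2). BIRC3, HRK, CASP10 and TNFSF10 had at most 35 counts in any library, which limits what can be said of them.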
